A study of Mus musculus with 8 samples.

Results

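The genes described here are 8 genes of ependymal cells and motile cilia: the transcription factors Foxj1, Rfx2 and Rfx3, the radial spoke head genes Rsph1 and Rsph9, the central pair gene Spag6, the tektin gene Tekt1 and the dynein gene Dnali1. They were taken by name, as every probe whose RefSeq accession belongs to 1 of these 8 genes, out of 20660 genes with a symbol on the array. All 8 had a probe, 13 probes in all. Of the 8, 7 were well above background on enough arrays to be tested in at least 1 comparison, and Rfx2 was not above background on any array.

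Neurospheres are balls of dividing neural stem cells and their progeny. The study hybridised their RNA, labelled with Cy3, to 8 Agilent arrays, and asked what loss of HP1gamma, the chromatin protein encoded by Cbx3, does to them. The cells came from the ganglionic eminence, the ventral telencephalon, of mouse embryos at E14.5, each sample was grown from the brain of 1 embryo, and RNA was taken from quaternary neurospheres. The groups were wild-type floating cultures (WT floating, 3 arrays), HP1gamma KO floating cultures (KO floating, 3 arrays) and HP1gamma KO adherent cultures (KO adherent, 2 arrays). The culture text is the same for all samples (ultra-low attachment plates for 7 days, with 20 ng/ml EGF and 20 ng/ml bFGF), and neither the adherent culture nor the KO allele is described further in the sources used here.

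Motile cilia beat by sliding the microtubule doublets of their axoneme against each other. Dynein arms drive the sliding, and radial spokes and the central pair control it. Ependymal cells, which line the ventricles of the brain, carry tufts of such cilia and move cerebrospinal fluid, and they arise from radial glia around birth. Foxj1 is the forkhead factor that switches on the motile cilia programme, and RFX factors bind X-box sites in the promoters of many cilia genes. Neural stem cells in culture carry a primary cilium, which shares the transport machinery but lacks most of the motility parts.

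RefSeq's promoter table (GRCm38.p6) held windows of 250 bases before to 50 bases after the start for 6 of the 8 genes (Rfx2, Rfx3, Rsph9, Spag6, Tekt1 and Dnali1). The 6 letters GTTGCC, which form one arm of an X-box, were searched on both strands. Spag6 and Tekt1 are shown because their probes were higher in KO arrays in the comparison of 6 arrays given further on, and because both hold these letters close to the start. The 250 bases before the start are printed 5′ to 3′ on the strand of the gene, with GTTGCC or its reverse GGCAAC in capitals. Spag6 lies on the plus strand (chr2:18698772-18699021) and Tekt1 on the minus strand (chr11:72361883-72362132).

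Spag6: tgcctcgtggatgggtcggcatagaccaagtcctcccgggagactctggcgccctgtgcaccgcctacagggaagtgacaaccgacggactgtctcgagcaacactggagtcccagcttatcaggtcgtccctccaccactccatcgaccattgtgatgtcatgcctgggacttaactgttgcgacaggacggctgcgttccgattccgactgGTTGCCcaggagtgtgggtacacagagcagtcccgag

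Tekt1: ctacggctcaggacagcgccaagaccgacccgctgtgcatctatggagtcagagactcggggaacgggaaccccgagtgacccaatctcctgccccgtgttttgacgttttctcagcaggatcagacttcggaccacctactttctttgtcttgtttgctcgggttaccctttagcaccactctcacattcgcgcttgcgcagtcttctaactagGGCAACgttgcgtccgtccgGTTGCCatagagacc

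In Spag6 the letters began 37 bases before the start. In Tekt1 they began 35 bases before it in the reverse orientation and 15 bases before it in the forward orientation, while a further RefSeq window of Tekt1 held none. Rfx2 held them 116 bases before the start and Rfx3 32 bases after it, and no match was found in the windows of Rsph9 and Dnali1. Thus 4 of the 6 genes with a window held the letters, against 14.1% of the 27025 genes in the table (12.5% of 32851 windows). Among other motile cilia genes, in 4 lists described further on, the share was 46.9% (45 of 96 genes). It was 48.7% (19 of 39) among genes of intraflagellar transport and the primary cilium. None of 6 ependymal markers outside the axoneme held the letters. The forkhead core TGTTTAC, on both strands, was in none of the 6 windows, in 4.05% of all genes and in 9.38% of the motile cilia genes (9 of 96). These matches describe letters in a window and are not binding sites. Of the genes that held GTTGCC, Rfx3 was lower in KO on its brightest probe in the comparison of 6 arrays. Rfx2 was not above background on any array. Spag6 and Tekt1 were picked by their direction and do not stand for the genes with these letters.

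All values given for arrays are log2 processed signals minus the array's 75th percentile, so 0 is the 75th percentile of the array. Levels of different probes are not on a common scale and are not set against each other. "Above background" means that the scanner software marked the probe as well above background. The 8 arrays lay on 1 slide in 2 rows and were scanned on 1 day. Their 75th percentile of signal was 616 to 865, and 44.5% to 55.4% of 59305 non-control spots were above background.

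The targeted gene goes against the label of 2 arrays. The brightest Cbx3 probe read 5.83, -2.17 and 5.95 on WT floating 1, 2 and 3, then -1.86, -2.76 and -1.75 on KO floating 1, 2 and 3, and -2.03 and 5.91 on KO adherent 1 and 2. The other Cbx3 probe split the arrays in the same way. The array labelled WT floating 2 thus had a low Cbx3 signal and the array labelled KO adherent 2 a high one. How the Cbx3 probes lie relative to the deletion is not stated in the labels. Comparisons are therefore given for the 8 arrays as labelled, and again without these 2 arrays.

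The culture's labelled origin was checked against marker genes. All 10 neural stem and radial glia genes (among them Sox2, Nes, Pax6 and Fabp7) were above background on all 8 arrays. Of 10 ganglionic eminence genes, 3 were above background on all 8 arrays, Lhx6 and Six3 among them. Dlx2 was above background on 7 arrays, Dlx1 on 6, Gsx1 on 4 and Lhx8 on 1, and Gsx2, Nkx2-1 and Dlx5 on none. Of 11 ependymal markers outside the axoneme, 7 (Cd24a, Clu, Mia, Prom1, Rarres2, S100b and Vim) were above background on every array and Tmem212 on none. Several of these, Vim, Prom1 and S100b among them, are also made by radial glia or astrocytes. Of 11 markers of choroid plexus epithelium, another ciliated tissue of the ventricles, Otx2 and Prlr were above background on all arrays, and the abundant marker Ttr and Kcne2 on none.

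The machinery that primary and motile cilia share was nearly all detected, and the machinery of motility in part. Of 46 genes of intraflagellar transport and the primary cilium, 44 to 46 were above background on each array. Of 27 probed radial spoke, central pair, nexin link and tektin genes, 14 to 21 were. Of 27 axonemal dynein genes and assembly factors, 13 to 16 were, and the heavy chain genes differed widely. Dnah8 was above background on all 8 arrays, Dnah7a on 4, Dnah2, Dnah6 and Dnah17 on 1 each, and Dnah1, Dnah5, Dnah9, Dnah10 and Dnah11 on none. Among 14 regulators, 9 to 10 were above background. Mcidas, a regulator of multiciliated cells, ranged from 4.17 to 5.13 over the 8 arrays, while its relative Gmnc was above background on no array. Among 37 other motile cilia genes 13 to 21 were detected, and of the 8 genes described here 5 to 7 were detected on each array, 3 of them (Foxj1, Rfx3 and Rsph9) on all 8. In these bulk samples, fewer cells of a type and less RNA per cell cannot be told apart.

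**Figure D1:**
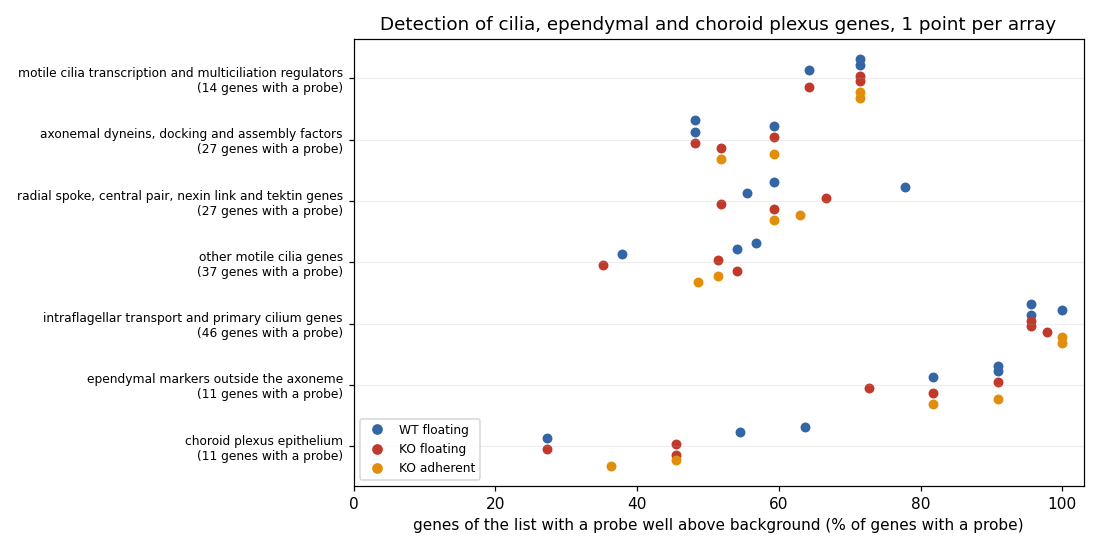
Share of each list's probed genes that were well above background (x axis, percent), with 1 point per array, coloured by labelled group. Intraflagellar transport and primary cilium genes sit at the right edge (44 to 46 of 46 genes), the motile cilia lists lie lower, and the points of the 3 groups interleave.

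The transcription factors come first. Foxj1 had 1 probe, above background on all 8 arrays. It read 0.07, -0.01 and -0.45 on WT floating 1 to 3, -0.21, -0.01 and -0.06 on KO floating 1 to 3, and -0.67 and -0.01 on KO adherent 1 and 2. The groups overlapped and the SD over the 8 arrays was 0.26. The KO floating mean was -0.09 ± 0.10 (SD, n = 3) and the WT floating mean -0.13 ± 0.28 (SD, n = 3).

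Rfx3 had 3 probes, and they differed in behaviour. The brightest probe read -0.13, -1.93 and 0.06 on WT floating 1 to 3, -0.92, -2.15 and -1.07 on KO floating 1 to 3, and -1.42 and -0.70 on KO adherent 1 and 2. The 3 highest values were on the 3 arrays with a high Cbx3 signal, and the lowest were on KO floating 2 and the array labelled WT floating 2. The share of all features that split the 8 arrays by their Cbx3 signal was not counted. In the comparison of 6 arrays given further on, 53.4% of all features did not overlap between the groups. The second probe stayed between -2.80 and -2.33 on all 8 arrays. The third ranged from -3.70 to -2.42 and was above background on 7 arrays. The only probe of Rfx2 ranged from -7.05 to -4.60 and was not above background on any array, so Rfx2 gave no measured difference.

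The radial spoke head genes encode the part of the spoke that meets the central pair. Rsph1 read -1.65, -4.54 and -1.79 on WT floating 1 to 3, -3.93, -4.50 and -2.81 on KO floating 1 to 3, and -4.63 and -1.50 on KO adherent 1 and 2. It was above background on 6 arrays, and not on KO floating 2 and KO adherent 1. The 3 highest values were on WT floating 1, WT floating 3 and the array labelled KO adherent 2, which are the 3 arrays with a high Cbx3 signal. As for Rfx3, how common this split is among all features was not counted. The other probe of Rsph1 was not above background on any array.

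Rsph9 read 2.76, 1.44 and 2.89 on WT floating 1 to 3, 2.08, 1.72 and 2.41 on KO floating 1 to 3, and 2.51 and 2.55 on KO adherent 1 and 2. It was above background on all 8 arrays. The lowest value was on the array labelled WT floating 2 and the next lowest on KO floating 2. The 3 arrays with a high Cbx3 signal read 2.55 to 2.89, just above the highest of the other 5, KO adherent 1 at 2.51. As for Rfx3, the share of all features that split in this way was not counted.

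Spag6 encodes a protein of the central pair apparatus. Its brightest probe read -5.10, -2.44 and -5.20 on WT floating 1 to 3, -2.47, -2.26 and -3.38 on KO floating 1 to 3, and -2.65 and -4.51 on KO adherent 1 and 2. It was above background on the 5 arrays with a low Cbx3 signal, the array labelled WT floating 2 among them, and not on the other 3. How common this split is among all features was not counted either. The second probe was above background on WT floating 2 alone, at -4.36. The probe of its paralogue Spag6l was not above background on any array, and since no probe sequence was used here, cross-hybridisation between these similar genes was not tested.

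Tekt1 encodes a tektin, a filament protein of the doublet microtubules. Its brightest probe read -2.67, -2.74 and -3.30 on WT floating 1 to 3, -2.08, -2.01 and -1.36 on KO floating 1 to 3, and -1.86 and -1.88 on KO adherent 1 and 2. The second probe read -3.19, -3.27 and -4.08, then -2.48, -2.39 and -2.26, then -2.58 and -2.73, in the same order of arrays. Both probes were above background on 7 arrays, all but WT floating 3. On both probes every KO-labelled array lay above every WT-labelled array, including the 2 whose Cbx3 signal opposed the label.

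Dnali1, a light intermediate chain of inner dynein arms, read -3.11, -4.39 and -2.77 on WT floating 1 to 3, -4.21, -4.43 and -3.50 on KO floating 1 to 3, and -3.78 and -4.09 on KO adherent 1 and 2. It was above background on all arrays but KO floating 2 and KO adherent 2. WT floating 1 and 3 were the highest, and the array labelled WT floating 2 lay with the lowest KO arrays.

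**Figure D2:**
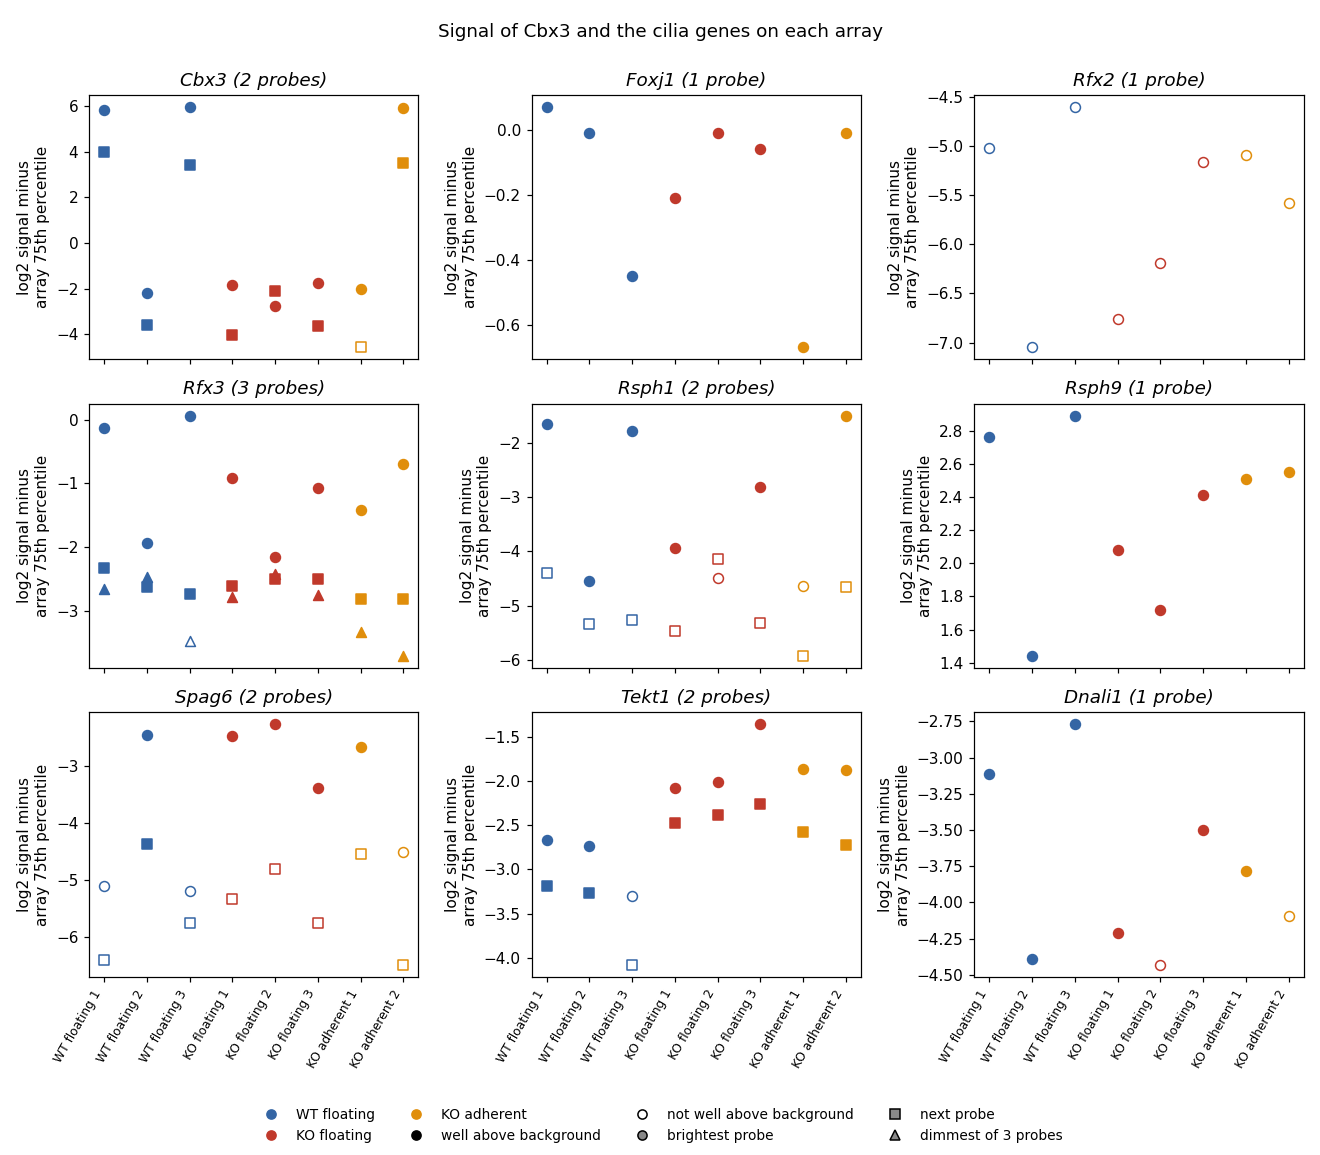
Log2 signal minus the array's 75th percentile (y axis) of Cbx3 and the 8 cilia genes on each of the 8 arrays (x axis), coloured by labelled group, with a marker shape per probe and open markers where a probe was not well above background. Spag6 is above background on the 5 arrays with a low Cbx3 signal, Rsph1 is highest on the other 3, and both Tekt1 probes are higher on every KO-labelled array than on every WT-labelled array. The share of all features that split by the Cbx3 signal was not counted. In the comparison of 6 arrays, 53.4% of all features did not overlap between the groups.

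In KO floating against WT floating cultures, as labelled, none of the 7 tested genes was called. Over all 22712 features 1 passed (0.0044%) at an adjusted p below 0.05 (limma, Benjamini-Hochberg over all features), and 393 had an unadjusted p below 0.05. Among the 7 genes, 1 had an unadjusted p below 0.05. That gene was Tekt1, higher by 1.08 (SE 0.27; adjusted p = 0.81), at -1.82 ± 0.39 in KO floating (SD, n = 3) and -2.90 ± 0.35 in WT floating (SD, n = 3). It alone did not overlap between the groups. Over all features 8.42% did not overlap, 3.83% with the KO arrays higher and 4.58% with them lower. Spag6 differed by 1.55 (SE 0.83), Rsph1 by -1.08 (SE 1.04), Rfx3 by -0.71 (SE 0.59), Dnali1 by -0.62 (SE 0.45), Rsph9 by -0.29 (SE 0.40) and Foxj1 by 0.04 (SE 0.24). For Spag6, Rsph1 and Rfx3 the array labelled WT floating 2 lay apart from the other WT arrays and near the KO arrays. Within slide rows 1 and 2 Tekt1 differed by 0.66 and 1.94, and Spag6 by 1.41 and 1.82.

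With these 2 arrays left out (WT floating 2 and KO adherent 2), the same comparison called 46 of 26031 features (0.177%) and again none of the 7 genes. The differences were then 2.45 for Spag6 (adjusted p = 0.075), 1.17 for Tekt1 (adjusted p = 0.13), -2.02 for Rsph1 (adjusted p = 0.13), -1.35 for Rfx3 (adjusted p = 0.15), -1.11 for Dnali1 (adjusted p = 0.15) and -0.75 for Rsph9 (adjusted p = 0.16). Foxj1 differed by 0.10.

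Adherent and floating KO cultures were compared for the effect of culture. No feature passed (0%) in limma, with 255 features at an unadjusted p below 0.05, and none of the 7 genes was among those. Spag6 differed by -0.88 (SE 0.93), Rsph1 by 0.68 (SE 1.17), Rsph9 by 0.46 (SE 0.45), Rfx3 by 0.32 (SE 0.66), Foxj1 by -0.25 (SE 0.26), Dnali1 by 0.11 (SE 0.50) and Tekt1 by -0.05 (SE 0.30). Both adherent arrays lie in slide row 2, where the differences from KO floating 3 were -0.21 for Spag6, -0.26 for Rsph1, 0.12 for Rsph9, 0.01 for Rfx3, -0.28 for Foxj1, -0.44 for Dnali1 and -0.51 for Tekt1. Without the 2 arrays, a single adherent array remained, Rsph1 differed by -0.88, Spag6 by 0.05 and Foxj1 by -0.58, and none was called.

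KO adherent and WT floating cultures share their WT arrays with the first comparison. Here too 1 of 22712 features was called (0.0044%) and none of the 7 genes, with 408 features and 1 of the genes (Tekt1) at an unadjusted p below 0.05. Tekt1 differed by 1.03 (SE 0.30; adjusted p = 1). The differences of Spag6 (0.67, SE 0.93), Rsph1 (-0.40, SE 1.17), Rfx3 (-0.39, SE 0.66), Dnali1 (-0.51, SE 0.50), Rsph9 (0.17, SE 0.45) and Foxj1 (-0.21, SE 0.26) did not pass either. Slide row 2, the only one to hold both groups, gave 1.43 for Tekt1 and 1.62 for Spag6.

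A further comparison set the 4 KO arrays with a low Cbx3 signal (KO floating 1, 2 and 3 and KO adherent 1) against WT floating 1 and 3. It was chosen with the Cbx3 signal known, and it joins both KO cultures. It called 3728 of 21510 features (17.3%), of which 1931 were higher in KO (8.98%) and 1797 lower (8.35%). Of the 7 tested cilia genes 4 were called: Spag6 and Tekt1 were higher, and Rsph1 and Rfx3 lower. Of these 7 genes, Foxj1, Rfx3 and Rsph9 passed the filter through both groups, Spag6 and Tekt1 through the KO arrays alone, and Rsph1 and Dnali1 through the WT arrays alone, so the count over these genes depends on the filter. When every one of the 6 arrays had to be above background, 3 of the genes were left and 1, Rfx3, was called, beside 17.8% of 18898 features.

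Spag6 was above background on 4 of 4 KO arrays and on neither WT array, and was at least 2.17-fold higher in KO. That bound sets the KO mean against the lowest signal above background on the WT arrays. The means were -2.69 ± 0.49 (SD, n = 4) and -5.15 ± 0.07 (SD, n = 2), a difference of 2.46 (SE 0.31; adjusted p = 0.012). Within slide rows 1 and 2 it differed by 2.74 and 2.19. The adjusted p was 0.070 without WT floating 3 and 0.054 with no filter on dim probes.

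Tekt1 was -1.83 ± 0.32 in KO (SD, n = 4) and -2.99 ± 0.45 in WT floating (SD, n = 2). The difference was 1.16 (SE 0.27; adjusted p = 0.039), and 1.21 on the second probe (adjusted p = 0.033). Within slide row 1 the brightest probe differed by 0.62 and within row 2 by 1.69. With the replicate number as a block the difference was 1.23 (adjusted p = 0.065), and after normexp background correction it was 0.55 (adjusted p = 0.11).

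Rsph1 was -3.97 ± 0.83 in KO (SD, n = 4; 2 of the 4 arrays above background) and -1.72 ± 0.10 in WT floating (SD, n = 2). It was lower by a difference of -2.24 (SE 0.51; adjusted p = 0.036). The block on the replicate number gave -1.94 (adjusted p = 0.054). Within rows 1 and 2 of the slide Rsph1 differed by -2.56 and -1.93.

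Rfx3 was -1.39 ± 0.55 in KO (SD, n = 4) and -0.03 ± 0.14 in WT floating (SD, n = 2) on its brightest probe, a difference of -1.36 (SE 0.35; adjusted p = 0.046). Its other probes differed by -0.07 (adjusted p = 0.78) and 0.24 (adjusted p = 0.61), so the lower signal was seen on 1 of 3 probes. Within rows 1 and 2 the brightest probe differed by -1.41 and -1.30. The calls of Rfx3, Rsph1 and Tekt1 were each lost when WT floating 1, WT floating 3, KO floating 1 or KO adherent 1 was left out. They were also lost with no filter on dim probes. With slide row as a block they were lost too, and for that setting alone the adjusted p was 0.053 to 0.062.

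Dnali1, at -1.04 (SE 0.29; adjusted p = 0.054), did not pass. It passed with the replicate block (-0.82; adjusted p = 0.048), slide row as a block (adjusted p = 0.032), quantile normalization (adjusted p = 0.033) and without KO floating 3 (adjusted p = 0.027). Rsph9 differed by -0.64 (SE 0.24; adjusted p = 0.11) and Foxj1 by -0.05 (SE 0.25; adjusted p = 0.90). Of the 7 genes, 6 did not overlap between these 2 groups (all but Foxj1; 2 higher and 4 lower in KO). Over all features 53.4% did not overlap, 24% higher and 29.4% lower in KO. On all 8 arrays as labelled, 1 of 20813 features was called (0.0048%) and none of 6 tested cilia genes. Tekt1 then differed by 1.06 (SE 0.22; adjusted p = 0.86), and it alone did not overlap between KO and WT labels. Over all features 2.02% did not overlap, 1.11% with KO higher and 0.918% with KO lower.

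**Figure D3:**
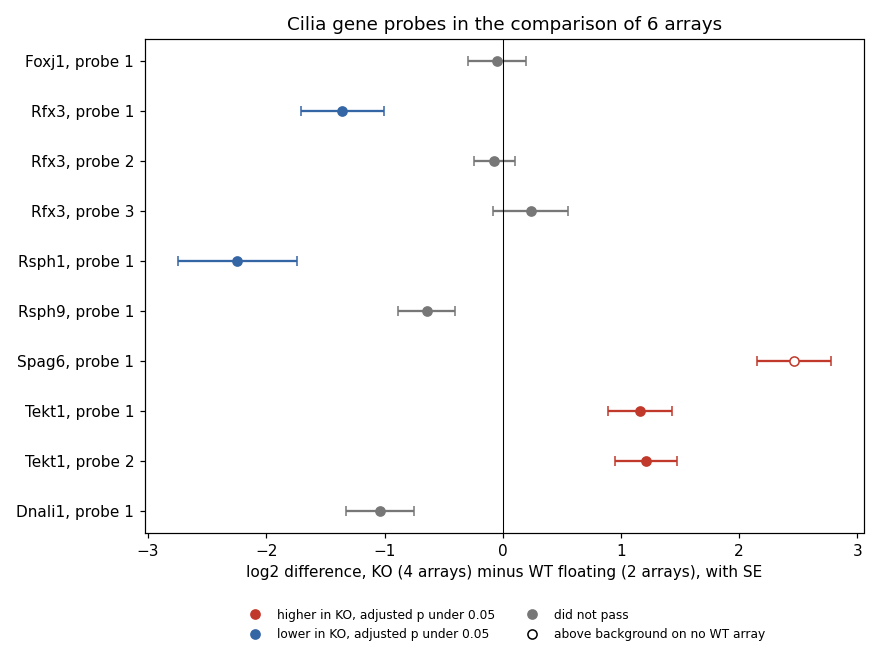
Log2 difference between 4 KO arrays and 2 WT floating arrays (x axis, with its SE) for every tested probe of the cilia genes (y axis), coloured by call, with an open marker where no WT array was above background. Spag6 and both Tekt1 probes lie to the right, Rsph1 and 1 of 3 Rfx3 probes to the left, and Foxj1 sits at -0.05.

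Other cilia genes, in lists that were chosen with earlier results of these data known, also moved in both directions in the comparison of 6 arrays. In 4 lists of motile cilia genes, 53 of 115 genes were tested: 4 were higher, 6 were lower, and 18.9% were called in all, beside 17.3% of all features. Of these 10 called genes, Dnaaf3 and Tppp3 passed the filter only through the group where they were high, so the share depends on the filter. Their median difference was -0.18, and that of all features was -0.07.

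Among regulators of multiciliation none of 9 tested genes was called in limma (median -0.30), and 2 had an unadjusted p below 0.05. Mcidas differed by 0.47 (SE 0.23) and Rfx4, an RFX factor of the neural tube, by -0.30 (SE 0.41).

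Of 13 tested dynein genes and assembly factors 1 was higher and 1 lower (median 0.04). Dnaic2, an intermediate chain of outer dynein arms, was higher by 0.997 (SE 0.20; adjusted p = 0.028). It read -1.24 and -1.45 on WT floating 1 and 3, and between -0.61 and -0.09 on the KO arrays. Dnaaf3, which helps assemble dynein arms in the cytoplasm, was lower by a difference of -2.28 (SE 0.20; adjusted p = 0.0061), at -1.54 and -1.42 against -3.90 to -3.35. It passed the filter through the WT arrays alone and was not above background on KO floating 2.

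Of 15 tested radial spoke, central pair, nexin link and tektin genes 1 was higher and 3 were lower (median -0.24). Tekt2, another tektin, was higher by 1.08 (SE 0.22; adjusted p = 0.029). It read -2.60 and -3.09 on WT floating 1 and 3 and -2.08 to -1.53 on the 4 KO arrays. Unlike Tekt1, Tekt2 was low on the array labelled KO adherent 2 (-2.75) and high on that labelled WT floating 2 (-1.65). Nme5 and Ropn1l, both of the radial spoke, differed by -0.98 (SE 0.25; adjusted p = 0.046) and -0.50 (SE 0.13; adjusted p = 0.048). Drc1, of the nexin link, differed by -0.91 (SE 0.24; adjusted p = 0.047).

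Of 16 other motile cilia genes 2 were higher and 2 lower (median -0.14). Cfap100, a cilia and flagella associated protein gene, read -0.58 and -0.08 on WT floating 1 and 3 and 1.79 to 2.71 on the KO arrays, a difference of 2.65 (SE 0.30; adjusted p = 0.0092). The gene 1110017D15Rik was higher by 0.72 (SE 0.14; adjusted p = 0.029). Tppp3, a tubulin polymerisation promoting protein gene, differed by -2.49 (SE 0.41; adjusted p = 0.020). It too passed the filter through the WT arrays alone and was not above background on KO floating 2. Mlf1 differed by -1.55 (SE 0.17; adjusted p = 0.0092).

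Of 44 tested genes of intraflagellar transport and the primary cilium 1 was higher and 4 were lower (median -0.13). The lower genes included Cep290, Tmem67 and Tctn2, which belong to the transition zone at the base of the cilium. They differed by -0.75, -0.63 and -0.83 (SE 0.14, 0.13 and 0.19).

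**Figure D4:**
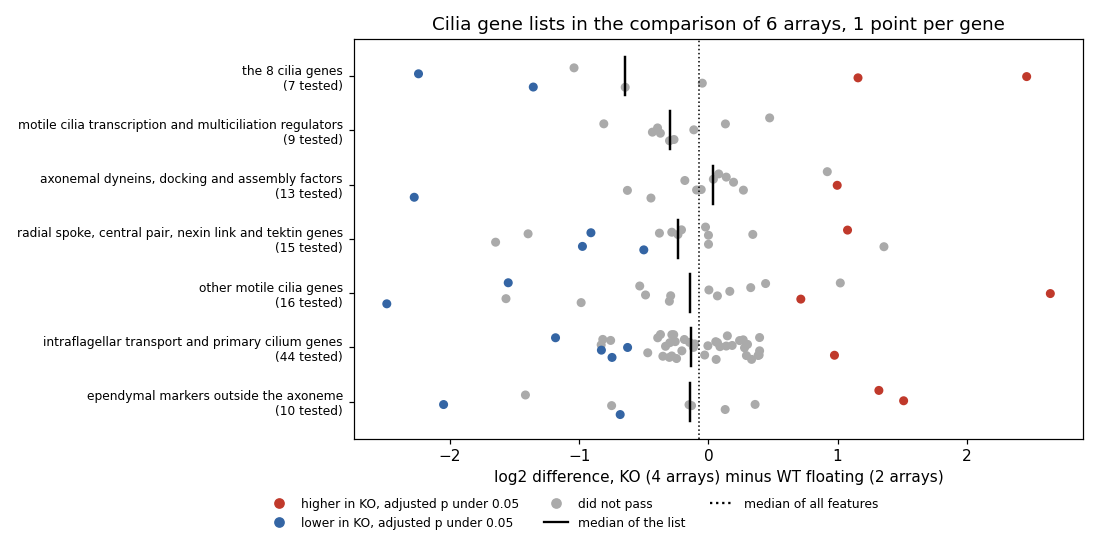
Log2 difference between 4 KO arrays and 2 WT floating arrays (x axis) for each tested gene of the cilia lists and the ependymal list (y axis), coloured by call, with each list's median as a bar and the median of all features (-0.07) as a dotted line. Called genes lie on both sides of 0 in every list except the multiciliation regulators, where none was called.

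Of 10 tested ependymal markers outside the axoneme 2 were higher and 2 lower (median -0.14). S100b, a calcium binding protein gene of ependymal cells and astrocytes, read 5.00 and 4.64 on WT floating 1 and 3 and 5.99 to 6.69 on the KO arrays, higher by 1.51 (SE 0.23; adjusted p = 0.017). The tested probe of Aqp4, the water channel of ependymal cells and astrocytes, was higher by 1.32 (SE 0.28; adjusted p = 0.033). It passed the filter through the KO arrays alone, and a further probe of Aqp4 was above background on WT floating 1. Rarres2, which encodes chemerin, differed by -2.05 (SE 0.33; adjusted p = 0.019), and Vim, the intermediate filament vimentin, by -0.68 (SE 0.16; adjusted p = 0.037).

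Marker lists of other cell types moved between the same 6 arrays. Of 7 tested astrocyte genes 4 were higher and 1 lower, S100b and Aqp4 being on both this list and the ependymal one. Of 9 oligodendrocyte lineage genes 4 were higher and 1 lower, of 7 neuronal genes 3 were higher and none lower, and of 10 neural stem genes 4 were higher and 1 lower. Of 4 tested choroid plexus genes 1, Kcnj13, was higher (at least 1.33-fold) and none lower. Over all features 8.98% were higher in KO and 8.35% lower. Kcnj13, Aqp4 and some of the higher neuronal genes passed the filter through the KO arrays alone. The lower astrocyte gene passed it through the WT arrays alone, so these counts depend on the filter. Of 4 tested ganglionic eminence genes 1 was higher and 1, Six3, lower (median 0.22). None of 3 microglial and 3 endothelial genes was called in limma, with 1 and 0 at an unadjusted p below 0.05. The summed signal of the 8 astrocyte genes (log2) was 7.04 and 6.14 on WT floating 1 and 3 and 7.53 to 8.27 on the KO arrays. That of the 10 neuronal genes was 4.85 and 4.87 against 5.13 to 5.39, with Gad2, Neurod1 and Stmn2 above background on no array. That of the 11 choroid plexus genes was 5.07 and 4.13 against 3.08 to 4.36. These sums, and that of the immediate early genes below, add signals of different probes, dim ones included, so the brightest probes weigh most. Each sum is set only against the same sum on other arrays. The part of such marker shifts in the cilia gene differences was not tested.

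Immediate early genes were also uneven among the arrays. None of 10 was called in the 6-array comparison (limma), and 0 had an unadjusted p below 0.05, while their summed signal (log2) was 6.97 on KO floating 2 and 6.95 on the array labelled WT floating 2, and 8.90 to 9.62 on the other 6 arrays. Those same 2 arrays had the lowest values of Rsph9 and of the brightest Rfx3 probe, but the highest values of the third Rfx3 probe. Whether these are linked was not tested.

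For each tested cilia gene that varied by an SD of 0.5 or more over the 8 arrays, the genes with the nearest pattern were found among 11412 genes above background on all arrays, by the root mean square difference in log2 after centring each gene on its own mean. For Spag6 they were the glycine transporter gene Slc6a9 (0.137), Lrrc75b (0.220) and Nsg2 (0.232). For Tekt1 they were Secisbp2l (0.163), Inhbb (0.226) and the small heat shock protein gene Cryab (0.266). For Rsph1 they were Rarres1 (0.219), Tnfrsf12a (0.250) and Hbegf (0.255).

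For Rfx3 they were Cds2 (0.121), the calponin gene Cnn2 (0.150) and Csrp2 (0.149). For Rsph9 they were Lrrn4cl (0.110), the histone methyltransferase gene Kmt5b (0.117) and Gtpbp6 (0.117). For Dnali1 they were Sim2 (0.193), Trip10 (0.209) and Ezh1 (0.215). None of these 18 nearest genes is on a cilia list used here, but few of the 11412 genes searched could be. Above background on all 8 arrays were 44 genes of intraflagellar transport and the primary cilium and 9 regulators. So were 11 dynein and assembly genes, 13 radial spoke, central pair, nexin link and tektin genes, and 11 other motile cilia genes. No conclusion is drawn from this absence. Foxj1, with an SD of 0.26, was not matched.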

How the data were processed

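The members and lists were chosen with earlier results of these data known, as was the comparison of 6 arrays. The deposited scanner files hold spot intensity on a linear scale, made by Agilent Feature Extraction 11.0.1.1 per the file headers (9.1.3.1 per the submitters' processing notes). In the deposited value table, 99.2% of the intensity values lay within 0.01% of that processed signal.

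Here log2 of the processed signal minus each array's 75th percentile was taken, spots marked as outliers were dropped and repeat spots averaged. For a probe to be tested, all arrays of 1 or more groups had to show it well above background. Genes with several such probes were tested on the brightest. Of 55681 probes, 27235 matched 1 gene in a RefSeq table of GRCm38.p6, without versions, and 200 lacked a value on at least 1 array. Tests were two-sided, with limma 3.58.1 in R 4.3.3 (lmFit, eBayes, Benjamini-Hochberg over all features, threshold 0.05). The 3 labelled groups shared 1 fit of all 8 arrays, and the comparison of 6 arrays had its own. The number of arrays limits the precision. The fit was tested on simulated data.

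The text names the 8 genes, Cbx3, and of each list up to 4 called genes with the smallest p in the comparison of 6 arrays (the 2 brightest where none was called). It also names the 3 genes nearest in pattern to each cilia gene. Markers given with the number of arrays on which they were above background were named after their values were seen. Some list genes that this rule names are not reported here.

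Deviations from the group means correlated across features between WT and KO floating arrays of the same number (r = 0.104, 0.590 and 0.335), which counts as pairing here. Pairs of unlike number ranged from -0.505 (KO floating 2 with WT floating 3) to 0.630 (WT floating 2 with KO adherent 1). WT floating 1 with KO floating 3 gave 0.346. Same-numbered pairs with an adherent array gave -0.630 to -0.055, so the pairing is uncertain. Alternatives were other normalizations, background correction, the value table, other filters, every probe, an intensity trend, a minimum of 2-fold, only the groups compared, a block for the replicate number or the slide row, and fits with arrays left out.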

Additional observations from a re-analysis of the deposited data

Results flagged for a closer look

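Of 50 genes examined (7 tested cilia genes and the leading genes of the lists), 4 had 1 array far from the other 3 among the 4 KO arrays of the 6-array comparison, by the gap to the nearest array over the whole range (Dixon's test). Chance gives such a gap in about 1 in 20 groups. Dnaaf3, the dynein arm assembly factor, read -3.35 on KO floating 3 and -3.90 to -3.88 on the other 3. Mlf1 read -2.65 on KO floating 3 and -2.35 to -2.33 on the others. The immediate early genes Nr4a1 and Egr1 read 4.83 and 4.96 on KO floating 2, where the others read 7.93 to 7.96 for Nr4a1 and 7.48 to 7.60 for Egr1. None of the 7 cilia genes had such an array.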

How the results depend on the processing

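On the brightest probe, the directions of Spag6, Tekt1, Rsph1 and Rfx3 in the 6-array comparison held under each alternative that tested them, while their calls did not. Of the other Rfx3 probes, 1 had the opposite direction (0.24). The cilia genes called there fell from 4 to 0 with no filter, to 1 when all 6 arrays had to be above background, to 2 with slide row as a block (Spag6 and, newly, Dnali1) and to 0 on all 8 arrays as labelled. With quantile normalization 5 were called, Dnali1 being the added one. Leaving out 1 array gave 0 to 5. It was 0 without WT floating 3, 1 without WT floating 1, KO floating 1 or KO adherent 1, and 5 without KO floating 3. Features called fell from 3728 to 179 with no filter and to 1 on all 8 arrays, 1850 were also 2-fold or more, and leaving out 1 array gave 460 to 5384. With the replicate block 3 cilia genes were called, Tekt1 at 1.23 and Rsph1 at -1.94 no longer and Dnali1 at -0.82 newly so, and it changed no other call of a cilia gene in that comparison.

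In KO floating against WT floating, 1 feature was called, 0 under each of 7 settings (no filter, normexp, an intensity trend, a filter on all arrays, the replicate block, the slide row block, only the groups compared), and 46 without both arrays that oppose their label. Leaving out 1 array gave 0 to 3. In KO adherent against KO floating, 0 became 7 with quantile normalization, and 0 to 6 without 1 array. In KO adherent against WT floating, 1 became 8 after quantile normalization, 4 without both arrays, 0 under the same 7 settings, and 0 to 3 without 1 array.

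Some directions turned among differences that were never called, and the cause was not tested. In KO adherent against KO floating, with slide row as a block, Rfx3 was -0.20, Rsph1 -0.22 and Dnali1 -0.49, and Dnali1 was -0.13 with normexp. Without both arrays Rfx3 was -0.038, Rsph1 -0.88 and Spag6 0.046. In KO adherent against WT floating, Rsph1 was 0.050 with the replicate block, and Rsph9 was -0.27 with slide row as a block and -0.31 without both arrays. Leaving out 1 array gave, in KO floating against WT floating, Foxj1 -0.12 to 0.14. In KO adherent against KO floating it gave Foxj1 -0.58 to 0.086, Rfx3 -0.062 to 0.68, Rsph1 -0.88 to 2.24, Spag6 -1.81 to 0.046, Tekt1 -0.18 to 0.18 and Dnali1 -0.080 to 0.39. In KO adherent against WT floating it gave Foxj1 -0.54 to 0.12, Rsph1 -1.96 to 1.16, Rsph9 -0.30 to 0.43 and Spag6 -0.26 to 1.59, and in the 6-array comparison Foxj1 -0.30 to 0.21. The cause was not tested. Rfx2, and in part Rsph1, Spag6 and Dnali1, were limited by signal near background, and normexp was run on the median spot signal.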
